A study of Mus musculus with 3 samples.

Results

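The group 14 C-type lectins and their extracellular matrix ligand Multimerin-2 were examined in sorted endothelial cells of the embryonic mouse kidney. The 4 genes were Cd93, Clec14a, Cd248 and Mmrn2, of 19938 named genes in all, and each was measured by the probe set whose platform annotation gave its symbol alone. The cells came from kidneys of Tie2-GFP transgenic CD-1 mice at 15.5 dpc, in which the promoter of Tek, the angiopoietin receptor Tie2, drives green fluorescent protein. GFP-positive cells were sorted after trypsin dissociation, 4 to 5 kidneys were pooled per sample, and each of the 3 pools was hybridized to its own Affymetrix Mouse Gene ST array. All 3 samples carried the transgene and formed a single group, replicates 1 to 3, with no GFP-negative or wild type sample beside them, so no difference between cell types could be tested. Tie2 is also known from some blood-forming and myeloid cells, and the purity of the gate was not tested. Whether the pools stem from different litters is not stated by the labels, and p-values therefore measure only the spread between these arrays.

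Group 14 C-type lectins are transmembrane proteins with an N-terminal C-type lectin-like domain, a sushi-like region, EGF-like repeats and a mucin-like stalk. CD93 and CLEC14A are carried by sprouting endothelium, where they take part in cell adhesion and migration, and CD248 (endosialin, TEM1) is best known from pericytes and fibroblasts. Thrombomodulin, encoded by Thbd, is the remaining family member and is the endothelial receptor for thrombin. MMRN2 is an endothelial matrix protein of the EMILIN and multimerin family that binds CD93, CLEC14A and CD248, and also VEGF-A.

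Among the member genes, the promoter table of RefSeq held only Clec14a. Its promoter is shown because ETS sites are among the conserved binding sites that the study's gene list analysis returned for these cells, and because Clec14a had a high signal in every array. The 250 bases before the transcription start lie at chr12:58269259-58269508 on the minus strand of GRCm38.p6, and are printed in the direction of the gene with capitals marking the match to an ETS core (TTCCTG, on either strand).
Clec14a promoter: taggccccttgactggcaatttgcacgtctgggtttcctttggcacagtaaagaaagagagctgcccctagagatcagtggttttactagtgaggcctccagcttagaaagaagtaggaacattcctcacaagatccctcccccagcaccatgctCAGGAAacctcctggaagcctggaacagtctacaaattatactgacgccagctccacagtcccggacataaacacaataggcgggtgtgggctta
The ETS core as given here (TTCCTG) was matched once, on the opposite strand, with its first base 95 bases before the start. Shorter or variant forms of an ETS site were not searched for. A SOX core (ACAAT) was matched once, 22 bases before the start, and a GATA core (AGATAA) was not matched in this window. No match overlapped another. Of 32851 promoters in the table, 25.7% held the ETS core in the same window on either strand, 27.7% the SOX core and 9.99% the GATA core, so each of these matches is common and describes the letters only.

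Cd93 and Clec14a had a high signal in all 3 pools, Cd248 a low and identical signal, and Mmrn2 a signal that was much lower in replicate 3. The level test asked whether the mean log2 value of a probe set lay above 6.64, the log2 of 100. The value was taken from the study, which required a raw expression level of at least 100 in 3 samples. That filter tested no mean, so a gene that did not pass the level test did not thereby fail it. The level test was run one-sided with limma, and p-values were Benjamini-Hochberg adjusted over all 35557 probe sets. Of the 4 genes, 3 lay above the level and none below, where 35.5% of all probe sets lay above it. With 3 arrays no exact test of a single gene could reach significance, since the smallest one-sided p is 0.125.

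Cd93, a receptor that links endothelial cells to the matrix, was at 11.44, 11.30 and 10.71 log2 in replicates 1, 2 and 3. Replicates 1 and 2 lay close together and replicate 3 was lower, and all were far above the level. The mean of 11.15 ± 0.39 (SD, n = 3) lay 4.50 log2 above the level, 22.7 times it (adjusted p = 0.0021). A share of 98.5% of named genes had a lower mean, a position that also depends on probe affinity.

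Clec14a, an endothelial lectin that binds MMRN2 and heparan sulfate, was at 9.57, 9.81 and 9.57 log2. Replicates 1 and 3 had the same value and replicate 2 was 0.24 log2 higher. The mean of 9.65 ± 0.14 (SD, n = 3) was 8.03 times the level (adjusted p = 0.000619), and 94.0% of named genes had a lower mean. The position of Clec14a among all genes was 92.3%, 94.2% and 94.7% in replicates 1, 2 and 3.

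Cd248 was at 7.27 log2 in each of the 3 arrays, 1.54 times the level. The values were identical to the last digit deposited, so the SD was 0.00 and the adjusted p of 5.11e-05 rests on a spread that the values do not show. Values equal in all 3 arrays were found for 19.7% of probe sets. With a single spread of 0.49 log2 pooled over all probe sets, the adjusted p of Cd248 was 0.0403. When the level was set at 200, Cd248 lay 0.37 log2 under it and passed the test on the lower side. A share of 65.2% of named genes had a lower mean than Cd248.

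Mmrn2 was at 9.33, 8.74 and 6.99 log2, and was the most variable of the 4 genes. It was over 100 in every array, with linear values of 646, 428 and 127, but replicate 3 stood near the level and apart from the others. The mean of 8.36 ± 1.22 (SD, n = 3) was 1.71 log2 above the level and did not pass the test (adjusted p = 0.12). It passed with the pooled spread (adjusted p = 4.56e-09), but that spread of 0.49 log2 is well under the SD of Mmrn2 itself. The position of Mmrn2 among named genes was 91.0%, 86.9% and 60.0% in replicates 1, 2 and 3.

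**Figure D1:**
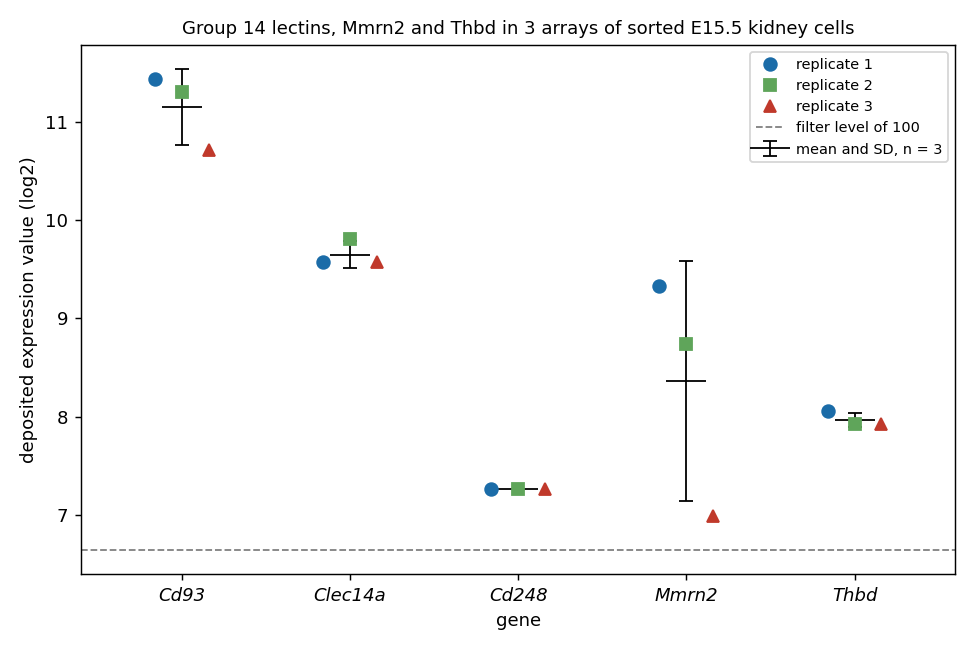
Deposited log2 expression values (vertical axis) of Cd93, Clec14a, Cd248, Mmrn2 and Thbd in 3 arrays of sorted E15.5 kidney cells, with a symbol for each replicate and a black bar and whiskers for the mean and SD. Mmrn2 drops from 9.33 in replicate 1 to 6.99 in replicate 3, just over the dashed filter level of 100, while Cd248 has a single value of 7.27.

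Thbd completed the family, and lay above the level as well. It was at 8.06, 7.93 and 7.93 log2, so that its arrays differed by 0.13 at most. The mean of 7.97 ± 0.07 (SD, n = 3) was 2.51 times the level (adjusted p = 0.000959). As replicates 2 and 3 were tied, this SD may be too small. Thbd also lay above the level by the pooled spread. Thbd and Cd93 are next to each other among the protein-coding genes of chromosome 2 in the RefSeq annotation of GRCm38.p6, while Clec14a is on chromosome 12, Mmrn2 on 14 and Cd248 on 19. All 4 genes of the lectin family were thus above the level, as were 41.6% of all named genes. At a level of 200, 3 of the 4 were above and Cd248 was below. The position of each gene among all named genes is a description, since probe sets differ in affinity, and the levels of the family's genes were not compared with each other.

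**Figure D2:**
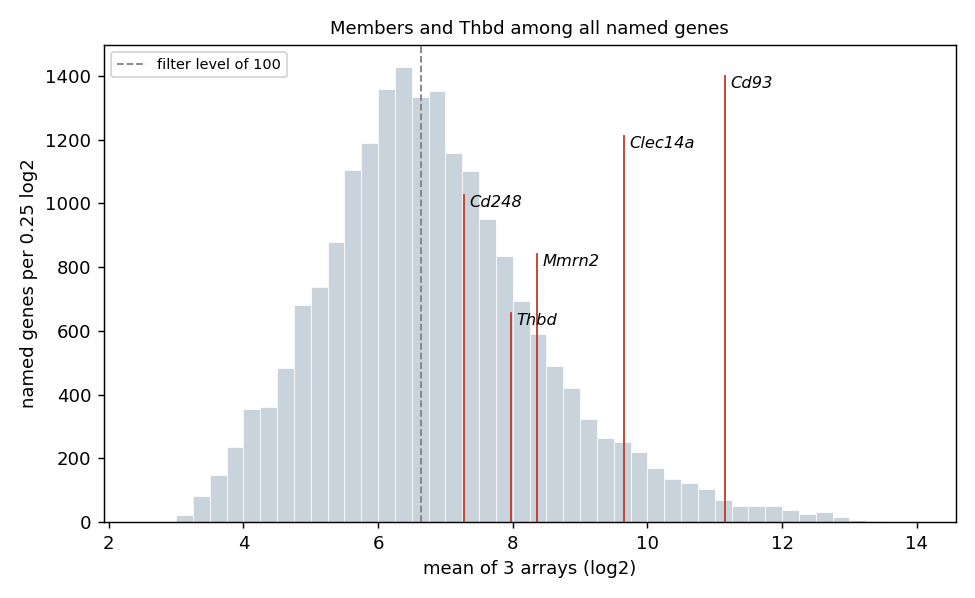
Histogram of the mean log2 value over 3 arrays of 19938 named genes, in bins of 0.25, with red lines at the means of Cd93, Clec14a, Mmrn2, Thbd and Cd248. Cd93 at 11.15 and Clec14a at 9.65 lie in the upper tail, and Cd248 at 7.27 lies near the bulk of the distribution. The height of a red line has no meaning.

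The arrays were not alike, and this bears on Mmrn2 and Cd93. Array medians were 6.50 to 6.55 log2, the correlation across probe sets was 0.976 between replicates 1 and 2 and 0.923 and 0.927 between these and replicate 3, and the SD of replicate 3 was 1.84 against 2.08 and 2.06. All 20 pan-endothelial marker genes were lower in replicate 3 than the mean of the other arrays, with a median difference of -0.91 log2. Their differences ranged from -2.00 (Eng) to -0.08 (Cldn5, claudin 5). After quantile normalization 19 of 20 were lower, with a median of -0.57. Among all 19938 named genes, 6617 were lower and 8207 higher, with a median of 0.00 (9819 and 10119 after quantile normalization). The medians of the pan-endothelial list were 10.11, 9.98 and 8.81 log2 in replicates 1, 2 and 3. Its summed linear signal was 25340, 22392 and 13653, where all named genes summed to 5635242, 5387380 and 4673130. The sum over all named genes was thus also lowest in replicate 3, which bears on the sums of all lists below. In replicate 3, Pecam1, Cdh5 and Tie1 were at 9.40, 10.43 and 8.02 log2, with means of 10.09, 11.08 and 8.62 over the arrays. Tek, whose promoter drives the sorting reporter, was at 10.13, with a mean of 10.74. Esam, Eng and Sox7, which did not pass the test, were at 6.77, 7.26 and 7.04 in replicate 3. In this list 17 genes passed the test above the level and none below it, where 41.6% of all named genes were above.

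Beside these genes, the differences of the 4 members in replicate 3 ranged from -2.04 to 0.00 log2. Mmrn2 in replicate 3 differed by -2.04 log2 from the mean of replicates 1 and 2, a 4.12-fold difference. This lay at the lower end of the pan-endothelial genes, next to that of Eng (-2.00) and followed by those of Kdr (-1.61) and Esam (-1.56). Eng, the TGF-beta co-receptor endoglin, was at 9.45, 9.08 and 7.26 log2, so that its drop in replicate 3 was practically that of Mmrn2. A share of 0.221% of all named genes, those of low signal included, was lower by more. It was also the only member at least 1 log2 lower in replicate 3 than in the lower of the other arrays, a drop that 5.46% of all probe sets showed. After quantile normalization its difference was -1.86.

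Cd93 differed by -0.66 log2 in replicate 3, or was at 63.4% of the mean of the other arrays, within the range of the pan-endothelial genes, of which 12 were lower by more and 8 by less. Clec14a differed by -0.12 log2, and by 0.25 in the opposite direction after quantile normalization. Of the pan-endothelial genes 19 were lower by more than Clec14a, the exception being Cldn5. Thbd, at -0.06, was lower by less than all 20 of them. Cd248 differed by 0.00. Values were equal in replicates 1 and 3 for Clec14a, in replicates 2 and 3 for Thbd and in all arrays for Cd248. Such ties make these small differences uncertain. Each value compares a single pool with a pair of others, so no test was made.

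**Figure D3:**
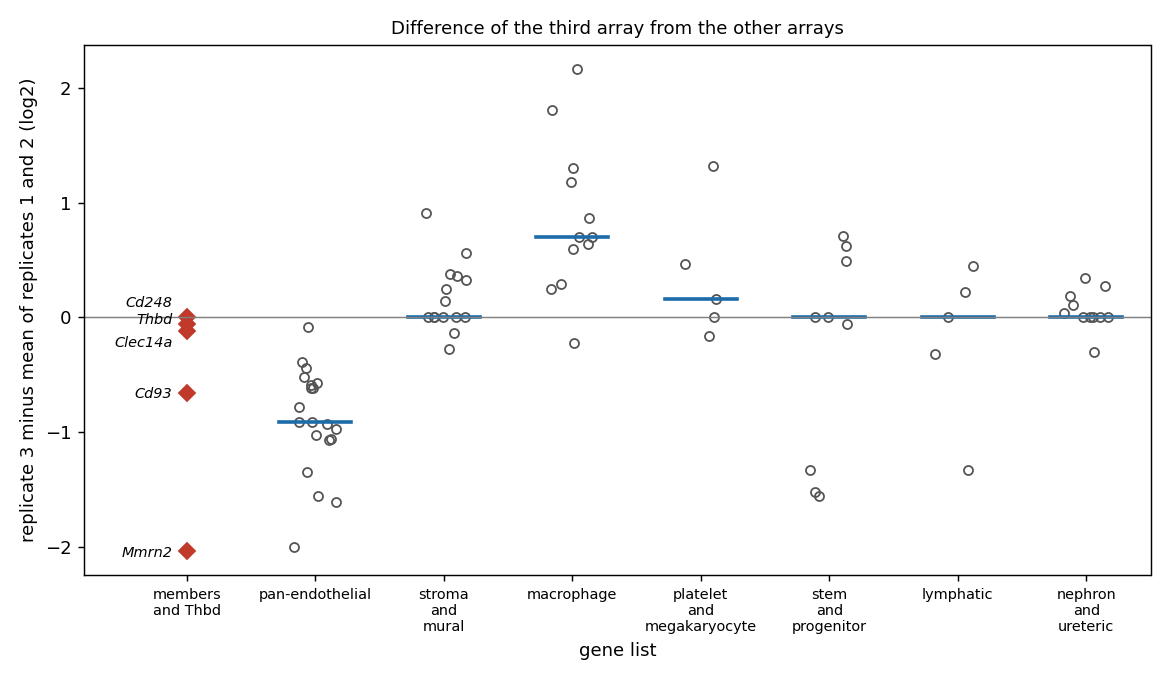
Replicate 3 minus the mean of replicates 1 and 2, in log2, for the 4 genes and Thbd (red diamonds) and for genes of the marker lists (open circles, with a blue bar at the median of each list). Pan-endothelial genes lie below 0 with a median of -0.91 and macrophage genes mostly above it with a median of 0.70, while Mmrn2 at -2.04 and Eng at -2.00 are the lowest points shown.

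Marker genes of macrophages moved the other way. Of 12 such genes 11 were higher in replicate 3 and 1, C1qa, was lower, with a median difference of 0.70 log2. After quantile normalization 10 of 12 were higher, with a median of 0.91. Among all named genes, 8207 of 19938 were higher and 6617 lower. Summed linear signal of the macrophage list was 1166, 2699 and 3954 in replicates 1, 2 and 3, and no marker was at 0. Csf1r, the receptor of the macrophage growth factor, was at 6.45, 6.98 and 7.41 log2, the macrophage adhesion receptor Adgre1 at 5.62, 6.74 and 6.42, and C1qa at 6.40, 6.88 and 6.42. The mannose receptor gene Mrc1 had the widest span of the list, at 6.51, 9.08 and 9.97. CD93 is also known from myeloid cells. The part of this shift in the values of Mmrn2 and Cd93 was not tested. In a bulk sample, fewer cells of a type and less RNA per cell cannot be told apart.

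Cd248 was set beside markers of stroma and mural cells, in which the gene is best known. The test put 5 of 15 such genes above the level and 7 below (2 and 5 by the pooled spread). Among all 19938 named genes, 8295 were above and 8290 below (7180 and 6474 by the pooled spread). The pericyte genes Pdgfrb, Rgs5 and Cspg4 were at 5.87, 5.89 and 6.17 log2 in every array, all below the level, although Cspg4 was not below it by the pooled spread. Smooth muscle actin Acta2 was at 7.21, also the same in every array, and the stromal factor Foxd1 was at 7.46, 7.68 and 8.48. Summed linear signal of the list was 1448, 1481 and 1728 in replicates 1, 2 and 3, no marker was at 0, and 7 genes were higher and 2 lower in replicate 3 than the mean of the other arrays (10 and 5 after quantile normalization). The list's median difference was 0.00 log2, as the other genes had equal values in all arrays. Among all named genes, 8207 of 19938 were higher and 6617 lower in replicate 3, and the median was also 0.00. Whether the Cd248 signal came from endothelial or from stromal cells was not tested.

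Cd93 also marks early blood progenitors, under the name AA4.1, and was set beside stem and progenitor genes. Of 9 such genes 1 was above the level, 3 were below and 5 on neither side (3 above and 1 below by the pooled spread). Among all 19938 named genes, 8295 were above and 8290 below. The gene above it was Cd34, a sialomucin that endothelium shares, at 11.49, 11.02 and 9.93 log2. Kit was at 9.28, 8.86 and 7.55 and did not pass (adjusted p = 0.0561), Runx1 was at 5.91, 5.91 and 6.62, and Myb was below the level at 6.34 in each array. Summed linear signal of the list was 4109, 3159 and 1755, with Cd34 as its largest part in every array, and no marker was at 0. The genes did not share the course of the sum. In replicate 3, 4 of the 9 were lower than the mean of the other arrays, among them Cd34 (-1.33) and Kit (-1.52). The 3 that were higher were Runx1 (0.71), Spi1 (0.62) and Flt3 (0.49). Among all named genes 6617 were lower and 8207 higher. The part of blood progenitors in the Cd93 signal was not tested.

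The other EMILIN and multimerin genes had flatter values than Mmrn2, but each had printed values that were equal between arrays. Such ties can make a gene look flat. Of the 5 genes of the family, 2 were above the level and 1 below, where 41.6% of all named genes were above. Emilin1, an elastic fibre glycoprotein, was at 7.76 log2 in each array, and Mmrn1, the platelet and lymphatic multimerin, at 6.94 in each, the latter not above the level by the pooled spread. Emilin2 was below the level at 5.86, 5.90 and 5.90, and Emilin3 was on neither side at 6.51, 6.51 and 6.89. In replicate 3 these 4 genes differed from the mean of the other arrays by 0.00 to 0.38, against -2.04 for Mmrn2.

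Mmrn1 was set beside platelet and lymphatic markers. Over all named genes, 41.6% were above the level. The test put 2 of 5 measured platelet genes (9 listed) above the level and 2 below (2 and 0 by the pooled spread). The chemokine Pf4, which macrophages can also carry, was at 9.27, 9.34 and 10.63 log2, while Itga2b was at 6.81, 6.81 and 7.27 and Gp9 at 6.39, 6.39 and 6.55. It put 1 of 5 measured lymphatic genes above and 1 below (2 and 0 by the pooled spread). Lyve1 was at 8.21, 8.65 and 8.65, Flt4 at 8.15, 8.15 and 6.82, and Prox1, the regulator of lymphatic identity, at 6.02, 6.66 and 6.02. Mmrn1 itself had the same value in every array. Summed linear signal was 1053, 1083 and 2063 for the platelet list and 821, 962 and 794 for the lymphatic list, and no marker was at 0.

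Most of the listed partner genes of the 4 proteins were above the level. Of 16 genes for binding partners and processing, 13 were above the level and 1 below (12 and 0 by the pooled spread, 2 above at a level of 200), with a median of 7.89 log2 against 6.67 over all named genes and 41.6% of those above. In replicate 3, 11 of the 16 were lower than the mean of the other arrays and none higher, with a median difference of -0.59. After quantile normalization 12 were lower and 4 higher. Among all named genes, 6617 of 19938 were lower and 8207 higher (9819 and 10119 after quantile normalization).

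Matrix ligands were among the genes above the level. Igfbp7, an angiogenic matrix protein that binds CD93, was at 8.51, 8.51 and 8.44 log2. Hspg2 (perlecan, a heparan sulfate proteoglycan that can bind CLEC14A) was at 8.83, 8.57 and 7.88, and fibronectin Fn1, a ligand of CD248, at 8.57, 8.54 and 7.75. Of these, Igfbp7 hardly differed between arrays, while Hspg2 and Fn1 were lower in replicate 3, with differences of -0.81 and -0.80. The collagen gene Col4a1 was at 8.27, 8.09 and 7.39 and Col1a1 at 7.58 in each array, both encoding ligands of CD248. Lgals3bp, another CD248 ligand, was at 6.72 in each array, and was above the level only without the pooled spread.

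Cell surface and signalling partners were mostly above the level too. The integrin chain Itgb1, through which CD93 acts on fibronectin, was at 11.46, 10.92 and 10.34 log2, and dystroglycan Dag1, which binds CD93, at 7.81, 7.81 and 7.46. Moesin (Msn) and Gipc1, which bind the cytoplasmic tail of CD93, were at 10.62, 10.30 and 9.07 and at 8.11, 8.11 and 7.39. All 4 were lowest in replicate 3, with a difference of -1.39 for Msn and of -0.85 to -0.36 for the others. Cbl, the adaptor and ubiquitin ligase downstream of CD93, was at 8.73, 8.30 and 6.94 and did not pass (adjusted p = 0.115), and the kinase gene Src was below the level at 6.15 in each array, though not by the pooled spread. The VEGF ligand gene Vegfa, whose product MMRN2 binds, was at 7.58 in each array, and its receptor Kdr at 10.69, 10.17 and 8.82. The protease gene Rhbdl2, whose product cuts CLEC14A from the cell surface, was at 7.18, 7.18 and 6.71 and did not pass (adjusted p = 0.122). Hspa1a, a chaperone reported to bind CLEC14A, was at 6.83 in each array, was not above the level by the pooled spread, and shares sequence with a near-identical copy, so its value is uncertain.

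**Figure D4:**
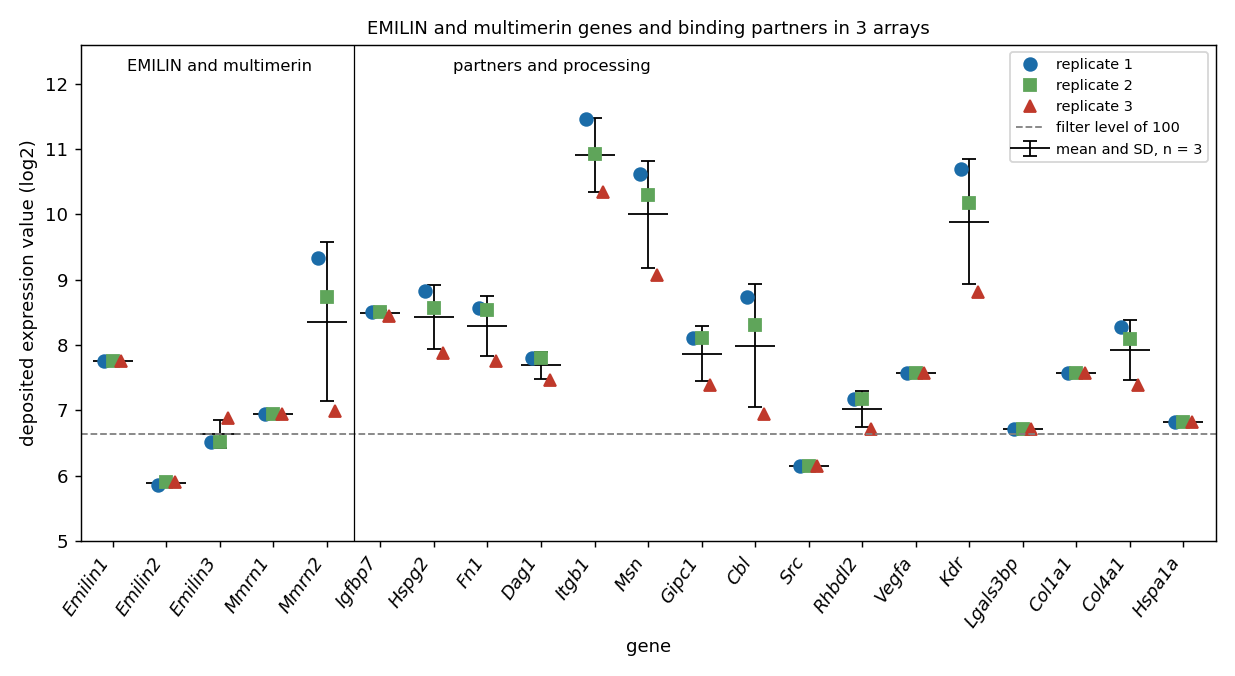
Deposited log2 expression values (vertical axis) of the 5 EMILIN and multimerin genes, left of the vertical line, and of 16 genes for binding partners and processing, right of it, with a symbol for each of 3 replicates and the mean and SD in black. Mmrn2, Cbl and Kdr are spread widest with replicate 3 lowest, while 7 of the 21 genes, such as Emilin1 and Vegfa, have equal values in all arrays.

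Genes with the most similar course over the 3 arrays were sought by the Euclidean distance between deviations from each gene's own mean, among 10097 other genes with a mean of at least 100. For Cd93 these were Copb2 (distance 0.00539 log2), Pgam1 (0.0093) and Zfp507 (0.0106). For Clec14a they were Rras2 (0.00367), Ufsp1 (0.00607) and Zfp661 (0.00938). For Mmrn2 they were Selenow (0.0455), Crtc2 (0.0744) and Mtss2 (0.0861), so that even the nearest gene was further away. Mtss2 was at 8.67, 8.06 and 6.43 log2. Cd248 could not be placed in this way, as 2197 genes shared its flat course exactly. With only 3 arrays such likeness is a description.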

How the data were processed

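RNA of 3 sorted pools was amplified in a single round (WT-Ovation Pico) and hybridized by the authors to Affymetrix Mouse Gene ST arrays. The values are log2 as deposited, 35557 per array. Affymetrix Expression Console is named in the notes the submitters gave on processing. The study names RMA for its own analysis. For this table the probe summarization was not stated in the sources used here. Values equal in at least 2 arrays were found for 55.9% of probe sets, which makes some SDs too small. The small number of arrays limits the precision.

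Probe sets with a single symbol (21789) were named through the platform annotation, with symbols updated by gene identifier in RefSeq GRCm38.p6 (21698 matched). Those with several symbols (1621) or none (12147) were left out of the gene values. A gene's value was the mean of its probe sets. It was called above the level if any probe set was, and below only if all were.

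Means were tested against log2(100) with limma 3.58.1 in R 4.3.3 (intercept only, eBayes, one-sided in each direction, Benjamini-Hochberg over all probe sets, threshold 0.05). The test was checked on simulated data, whose spread between arrays was set smaller than the pooled spread of 0.49 log2. Differences between arrays were described without a test. Python 3.11.15, numpy 2.4.6 and pandas 2.3.3 were used otherwise. The members and lists were chosen with earlier results of these data known. The named genes were the members, the family and partner lists, the first 3 genes of marker lists and the nearest patterns. Cd34, Spi1, Flt3, Lyve1, Flt4, Prox1, Acta2, Foxd1, Cldn5, Eng, Esam, Sox7, Tek and Mrc1 were picked or described further after their values were seen. The planned comparison of protein sequences was not made.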

Additional observations from a re-analysis of the deposited data

How the results depend on the processing

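Of 77 values recomputed under other settings, 65 were taken as kept. For these, a level kept its direction and its side of the threshold, or a difference moved by no more than the spread between arrays. A count was taken as kept if it changed by at most 1.5 times. The count of members above the level was 2 at a level of 200, 4 with the pooled spread and 3 in all other settings, each array left out in turn included. At a level of 200, Cd248 lay under the level (adjusted p = 1 for above), and the genes above it numbered 1 of 5 for the EMILIN and multimerin family, 2 of 16 for partners and 10 of 20 for pan-endothelial genes. Among all 19938 named genes, 3221 were above that level. With the spread pooled across the table, which is under the SD of Mmrn2 itself, Mmrn2 was above the level (adjusted p = 4.56e-09). Its adjusted p ranged up to 0.768 over the other settings. Quantile normalization turned the difference of replicate 3 to 0.25 log2 for Clec14a and 0.15 for Cd248. Subtracting the array median gave -0.04 for Cd248. Relative to the pan-endothelial median of each array, the differences were 0.58 for Cd93, 1.12 for Clec14a, 1.23 for Cd248 and -0.81 for Mmrn2, so that Cd93 and Clec14a changed sign and Mmrn2 kept it. The cause was not tested. Leaving out replicate 3 from the lists was chosen after seeing the data, and moved none of the 4 list counts by over 1.5 times. No paired analysis was possible because there is a single group.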

Other observations

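Genes of other kidney and blood lineages gave these values, beside 8295 above the level and 8290 below among all 19938 named genes. The test put 7 of 11 nephron and ureteric genes above the level and 2 below (4 and 1 by the pooled spread), with Six2 at 7.22, 7.44 and 7.44 log2, Cited1 at 7.28 and Wt1 at 6.71 in each array. It put 3 of 7 measured red cell genes above and 3 below (1 and 3 by the pooled spread), with Epb42 at 5.58 and Klf1 at 5.71 in each array and Alas2 at 7.06, 7.48 and 6.85. Summed linear signal was 1284, 1308 and 1348 for the nephron and ureteric list and 794, 687 and 650 for the red cell list in replicates 1, 2 and 3.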
